A study of Homo sapiens with 8 samples.

Results

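Integrins are the receptors through which human embryonic stem cells (hESCs) hold on to their matrix, and 10 of their subunit genes were examined here in H9 hESCs. The genes were taken by symbol: the beta subunits ITGB1, ITGB5 and ITGB8, and the alpha subunits ITGA3, ITGA6, ITGA7, ITGAV, ITGA5, ITGA2B and ITGA1. All 10 were found among the 20344 genes of the series. H9 is an established hESC line, kept on Matrigel, a laminin-rich basement membrane extract, in mTeSR1 or TeSR-E8 medium. In the first experiment, 2 libraries were made from low-density cultures and 2 from crowded, high-density ones, where attachment was limited to small drops of Matrigel. Density and this patterned surface went together, so their effects cannot be told apart. In the second, 2 libraries came from H9 cells with a control hairpin (shControl) and 2 from H9 cells with a hairpin against ETV4 (shETV4), an ETS-family transcription factor. The labels do not name the hairpin in either shETV4 library. The 8 libraries held between 50359703 and 62410168 reads on genes. The labels do not say that the replicates came from separate cultures, so the p-values measure only the spread between these libraries.

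All 9 pluripotency markers looked for were listed in both experiments. POU5F1, the gene of the pluripotency factor OCT4, stood between 1016 and 1405 FPKM (a level scaled by transcript length and by library size) in the 8 libraries, and PODXL, a surface marker of hESCs, between 289 and 380 FPKM. After crowding 6 of the 9 had an edgeR adjusted p below 0.05, and NANOG, a pluripotency factor gene, lay furthest from 0 with a log2 fold change of -0.46. After ETV4 knockdown DNMT3B, a DNA methyltransferase gene, and TDGF1, a NODAL co-receptor gene, fell (log2 fold change -0.82 each), LIN28A, an RNA-binding protein gene, rose (0.51), and NANOG had -0.44. The part of these differences in the subunit results was not tested. Of other lineages, the summed FPKM of 4 neuroectoderm markers did not exceed 0.181 in the density libraries or 0.322 in the hairpin libraries, and that of the mesendoderm markers was at most 1.01 and 0.865. That of the definitive endoderm markers, led by CER1, was 3.81 and 4.30 FPKM at low density and 0.579 and 0.370 FPKM at high density, and 2.12 and 2.95 FPKM with shControl and 1.05 and 1.58 FPKM with shETV4. The most abundant marker of another lineage was COL1A1, a fibrillar collagen gene counted here with mesenchyme, at a mean of 24.3 FPKM in the density experiment and 32.9 FPKM in the hairpin experiment. Of the other mesenchyme markers, DCN and LUM were listed in neither experiment.

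An integrin is a dimer of 1 alpha and 1 beta chain, and the pair decides which matrix protein is bound. ITGB1 pairs with ITGA3, ITGA6 and ITGA7 to bind laminin, with ITGA5 to bind fibronectin, with ITGA1 to bind collagen, and with ITGAV to bind RGD-containing proteins, named for the arginine-glycine-aspartate motif. ITGB5 and ITGB8 pair with ITGAV, the former as a vitronectin receptor and the latter as a receptor for latent TGF-beta. ITGA2B is best known as the platelet fibrinogen receptor chain, whose partner is ITGB3. In hESCs, laminin binding through ITGA6 and ITGB1 and vitronectin binding through ITGAV and ITGB5 are the adhesions that feeder-free culture relies on.

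In low-density cells ITGB1 was the most abundant of the 10 genes, at 126 ± 1.75 FPKM (SD, n = 2). It was followed by ITGB5 (60.8 ± 0.770), ITGA6 (34.6 ± 0.807), ITGA7 (14.8 ± 0.682), ITGAV (9.68 ± 0.233), ITGA5 (5.07 ± 0.0882), ITGA3 (4.46 ± 0.206), ITGA1 (1.39 ± 0.101), ITGA2B (1.08 ± 0.195) and ITGB8 (0.436 ± 0.0411). FPKM is a level per length, so these genes can be set against each other. At high density ITGA6 (53.6 ± 0.889) stood above ITGB5 (24.9 ± 1.61), and ITGA2B (2.17 ± 0.0405) above ITGA1 (0.678 ± 0.0205); the other places were as at low density. With shControl the order matched that of low density except that ITGA5 (8.47 ± 0.106) stood above ITGAV (8.10 ± 0.171) and ITGA2B (1.87 ± 0.158) above ITGA1 (1.00 ± 0.00856). With shETV4, ITGA3 (7.13 ± 0.397) also stood above ITGAV (6.67 ± 0.284). These last 2 were the only neighbours in the 4 orders whose libraries overlapped. The tables of the experiments were normalized separately, so a level in one is set beside a level in the other only as a description.

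ITGB8 stood between 0.346 and 0.465 FPKM in all libraries, on 195 to 289 reads, so that its place among genes expressed in hESCs rests on few reads. ITGAE, the alpha chain of an E-cadherin receptor and not among the 10 genes, stood between 1.97 and 3.67 FPKM, above ITGB8 in each library.

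**Figure D1:**
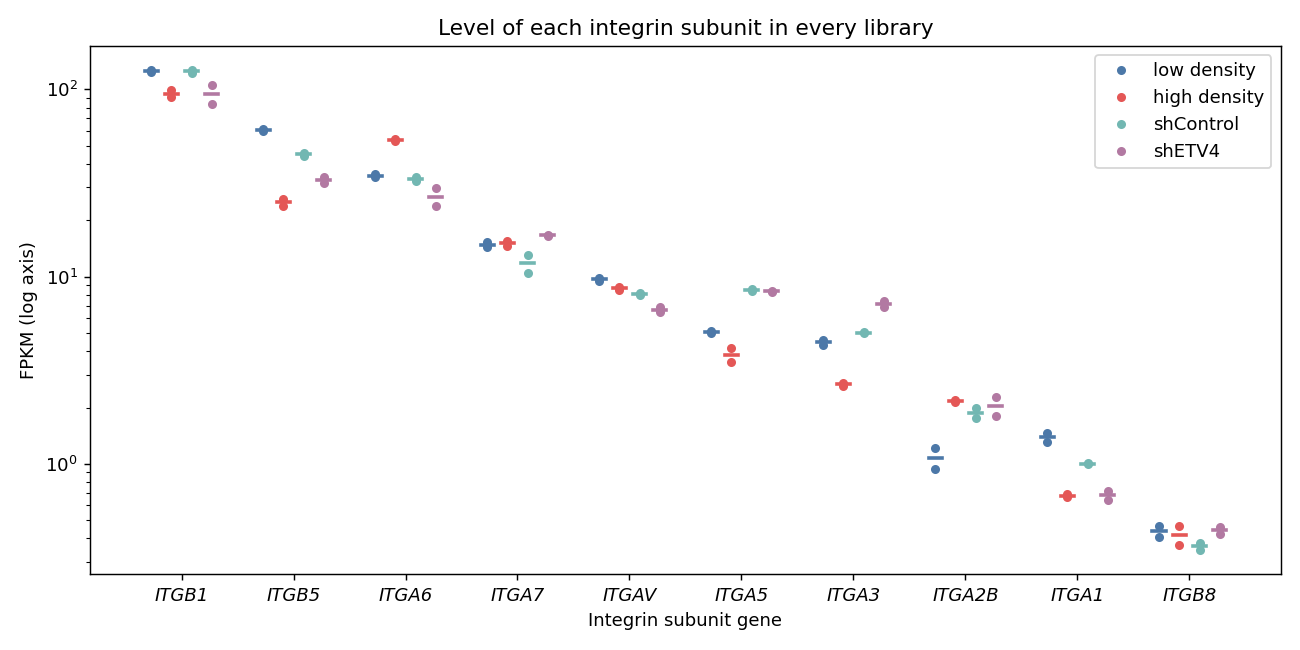
FPKM of the 10 integrin subunit genes on a log axis in the 8 libraries, with a point for each library and a bar for the mean of the 2 libraries of a group. ITGB5, ITGA3 and ITGA1 sit lower and ITGA6 and ITGA2B higher at high density than at low density, with no overlap between the libraries, and ITGA3 sits higher with shETV4.

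The first question was whether subunit RNA changed when cells were crowded. Crowding lowered the RNA of the vitronectin receptor chain ITGB5, the collagen receptor chain ITGA1 and the laminin receptor chain ITGA3, and raised that of the laminin receptor chain ITGA6 and of ITGA2B. A gene was called changed where the adjusted p was below 0.05 and the log2 fold change was past 0.5 in either direction (edgeR's quasi-likelihood test, Benjamini-Hochberg adjustment over all 17672 genes tested). By this rule 5 of the 10 subunits were called, 2 higher and 3 lower, where 16.1% of all genes tested were called, 10.7% higher and 5.47% lower. An adjusted p below 0.05 alone held for 8 of the 10 and for 39.7% of all genes, and the libraries of the 2 densities did not overlap in FPKM for 8 of the 10 and for 70.2% of all genes. The median log2 fold change of the 10 subunits was -0.34, against 0.0032 over all genes tested. In bulk RNA, fewer cells that express a subunit and less of its RNA per cell cannot be told apart.

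Among the beta chains, ITGB5 showed the widest difference. ITGB5 (chromosome 3, 124480795 to 124620265, minus strand, GRCh37) stood at 60.3 and 61.4 FPKM at low density and at 26.0 and 23.8 FPKM at high density. Both high-density libraries lay below both low-density libraries. It fell 2.55-fold (log2 fold change -1.35 ± 0.0599 SE, edgeR adjusted p = 6.98e-13), and was called with any 1 library left out, at -1.42 to -1.28.

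ITGB1 (chromosome 10, 33176201 to 33294720, minus strand), the common partner of most alpha chains, stood at 127 and 125 FPKM at low density and at 90.9 and 98.9 FPKM at high density. The groups did not overlap, but the log2 fold change of -0.47 ± 0.0525 SE (edgeR adjusted p = 6.68e-07) stayed inside the limit of 0.5. Without the second high-density library it was -0.52 and was called. ITGB1P1, a processed pseudogene of ITGB1, had 168 to 374 reads per library beside 18370 to 32286 reads of ITGB1, and reads that fit both copies leave the level of the pseudogene uncertain. ITGB8 (chromosome 7, 20370325 to 20455377, plus strand) stood at 0.407 and 0.465 FPKM at low density and 0.464 and 0.371 FPKM at high density, and these overlapped. Its log2 fold change was -0.12 ± 0.175 SE (edgeR adjusted p = 0.626), with a 95% interval from -0.462 to 0.224.

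The laminin-binding alpha chains did not move together. ITGA6 (chromosome 2, 173292082 to 173371187, plus strand) stood at 35.2 and 34.1 FPKM at low density and at 53.0 and 54.3 FPKM at high density. Each high-density library lay above each low-density library, and ITGA6 rose 1.49-fold (log2 fold change 0.58 ± 0.0537 SE, edgeR adjusted p = 5.15e-08). ITGA3 (chromosome 17, 48133332 to 48167845, plus strand) went the other way, from 4.60 and 4.31 FPKM to 2.72 and 2.61 FPKM. Its groups were apart as well, and it fell 1.74-fold (log2 fold change -0.80 ± 0.0846 SE, edgeR adjusted p = 2.89e-07). ITGA7 (chromosome 12, 56078352 to 56110188, minus strand), a laminin receptor chain best known from muscle, stood at 15.3 and 14.4 FPKM at low density and 15.5 and 14.6 FPKM at high density. These overlapped almost fully, and the 95% interval of its log2 fold change reached from -0.157 to 0.0826.

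Of the RGD-binding alpha chains, ITGA2B was the one called. ITGAV (chromosome 2, 187454737 to 187545628, plus strand), the alpha chain of the vitronectin receptors, stood at 9.51 and 9.84 FPKM at low density and 8.51 and 8.81 FPKM at high density. The libraries did not overlap, and the log2 fold change of -0.22 ± 0.0578 SE (edgeR adjusted p = 0.00495) was below the limit for a call. ITGA5 (chromosome 12, 54789045 to 54813050, minus strand), the fibronectin receptor chain, stood at 5.13 and 5.004 FPKM at low density and at 3.50 and 4.17 FPKM at high density. Both high-density libraries were lower, but the log2 fold change of -0.46 ± 0.0882 SE (edgeR adjusted p = 3.37e-04) missed the limit, and was -0.58 and called without the second high-density library.

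ITGA2B (chromosome 17, 42449548 to 42467017, minus strand) stood at 1.22 and 0.942 FPKM at low density, on 244 and 227 reads, and at 2.14 and 2.19 FPKM at high density, on 467 and 547 reads. Both high-density libraries were above the low-density libraries, and it rose 1.93-fold (log2 fold change 0.95 ± 0.153 SE, edgeR adjusted p = 5.18e-05). By limma on log2(FPKM + 0.5) and on log2(FPKM + 1) the log2 fold change of ITGA2B was smaller, at 0.76 and 0.61. Its platelet partner ITGB3 was not listed in the density table, and of 5 megakaryocyte and platelet markers only PF4, a platelet chemokine, was, at 0.144 FPKM or less. PPBP, GP9 and GP1BA were listed in neither experiment.

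ITGA1 (chromosome 5, 52083750 to 52255039, plus strand), the one collagen-binding chain among the 10, stood at 1.46 and 1.31 FPKM at low density and at 0.663 and 0.692 FPKM at high density. The groups were clearly apart, and it fell 2.12-fold (log2 fold change -1.09 ± 0.105 SE, edgeR adjusted p = 8.23e-08). By limma on log2(FPKM + 0.5) and on log2(FPKM + 1) the log2 fold change of ITGA1 was smaller, at -0.68 and -0.51. ITGA2, a collagen receptor chain outside the 10, did not fall. It stood at 1.02 and 1.06 FPKM at low density and at 1.03 and 1.29 FPKM at high density (log2 fold change 0.10, edgeR adjusted p = 0.567). PELO, a ribosome rescue factor gene, lies inside the ITGA1 span on the same strand and had more reads (1605 to 2138 against 447 to 977), and its log2 fold change was -0.36. The mesenchyme marker PDGFRB, a growth factor receptor, was lower with ITGA1: it stood at 2.73 and 2.44 FPKM at low density and at 0.898 and 0.940 FPKM at high density (log2 fold change -1.58, edgeR adjusted p = 1.11e-09). Of the other mesenchyme markers tested, COL1A1 had a log2 fold change of -0.44 and TWIST2, at under 1 FPKM, of 0.35, and neither was called. All 3 definitive endoderm markers tested fell as well, with a median log2 fold change of -2.85: FOXA2 and CXCR4 at under 1 FPKM (-2.85 and -1.30), and the secreted CER1 from 3.24 and 3.82 FPKM to 0.443 and 0.189 FPKM (log2 fold change -3.53). The summed FPKM of the mesenchyme list, led by COL1A1, was 31.0 and 30.3 at low density and 22.8 and 22.6 at high density. Whether mesenchyme cells were present, and had a part in the ITGA1 result, was not tested.

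**Figure D2:**
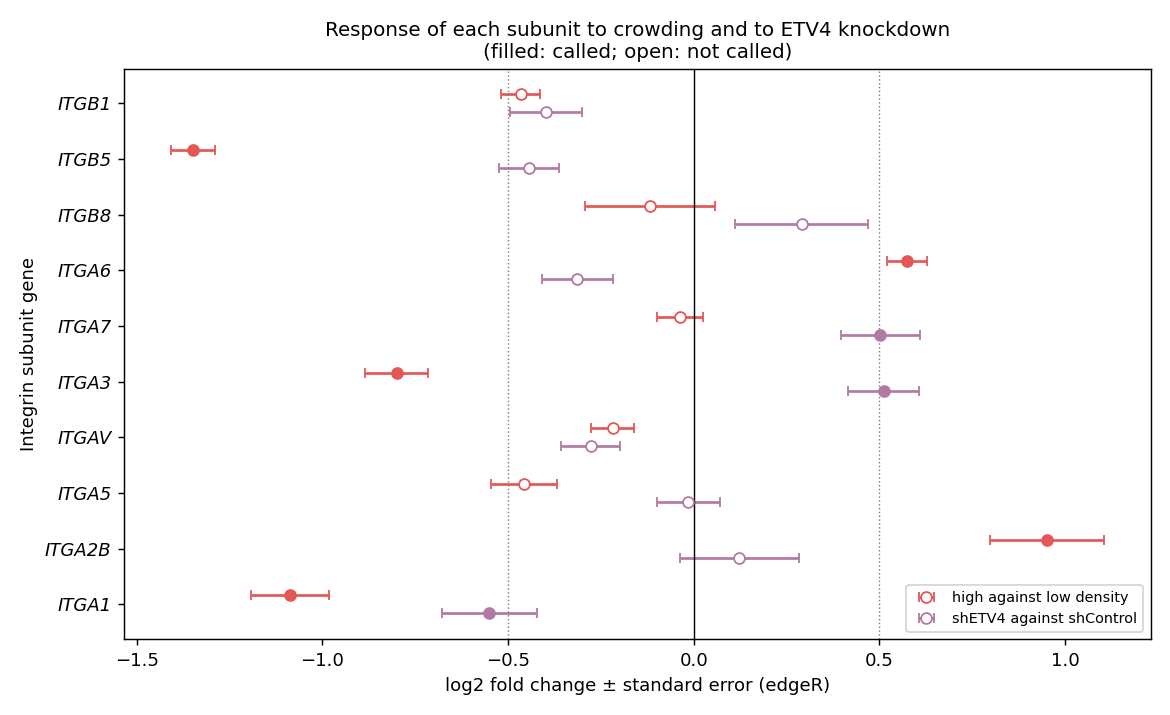
Log2 fold change ± standard error (edgeR) of each subunit, for high against low density and for shETV4 against shControl, with filled points for called genes and dotted lines at the limit of 0.5. After crowding ITGB5 and ITGA1 lie beyond -1 and ITGA6 and ITGA2B beyond 0.5, while after ETV4 knockdown the values run from -0.55 (ITGA1) to 0.51 (ITGA3).

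The second question was whether lowering ETV4 changed the same receptors. ETV4 itself stood at 90.8 and 95.1 FPKM with shControl and at 45.6 and 40.9 FPKM with shETV4, 2.23-fold lower (log2 fold change -1.15, edgeR adjusted p = 1.60e-04), so that 46.6% of its mean FPKM was left. With crowding the log2 fold change of ETV4 was -0.49, inside the limit of 0.5. Of the 10 subunits, 3 were called after ETV4 knockdown: the laminin chains ITGA3 and ITGA7 rose and the collagen chain ITGA1 fell. Of all 17879 genes tested, 13.0% were called, 5.88% higher and 7.10% lower. An adjusted p below 0.05 alone held for 7 of the 10 subunits, against 21.5% of all genes, and the libraries did not overlap for 8 of the 10, against 63.3%. The median log2 fold change of the 10 subunits was -0.15, against -0.0012 over all genes tested. All 3 called subunits lay close to the limit of 0.5, and each of the 3 calls was lost without at least 1 of the 4 libraries. By limma on log2(FPKM + 0.5) ITGA3, ITGA7 and ITGA1 had log2 fold changes of 0.47, 0.49 and -0.35 and were not called.

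ITGA3 stood at 4.98 and 5.06 FPKM with shControl and at 6.85 and 7.41 FPKM with shETV4. Both shETV4 libraries were higher, by 1.43-fold (log2 fold change 0.51 ± 0.0953 SE, edgeR adjusted p = 0.00921), and without the second shETV4 library the value was 0.42 and not called. ITGA7 stood at 10.5 and 13.1 FPKM with shControl and at 16.8 and 16.5 FPKM with shETV4. The shETV4 libraries were alike and higher, while the shControl libraries stood apart from each other, and ITGA7 rose 1.42-fold (log2 fold change 0.50 ± 0.106 SE, edgeR adjusted p = 0.0146). Without the first shControl library its log2 fold change was 0.36, and without the second shETV4 library 0.48, and neither was called. BLOC1S1, a lysosome biogenesis gene, and METTL7B overlap the ITGA7 span on the opposite strand, with log2 fold changes of 0.34 and 0.27; no source used here says that counting took strand into account, so where they overlap their reads cannot be told apart from those of ITGA7. ITGA6 stood at 34.2 and 32.5 FPKM with shControl and 29.7 and 23.8 FPKM with shETV4. Both shETV4 libraries were lower but differed widely from each other, and the log2 fold change of -0.31 ± 0.0956 SE (edgeR adjusted p = 0.0496) was below the limit. It was -0.45 without the first shETV4 library and -0.19 without the second, and was called in neither case.

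ITGA1 stood at 1.01 and 0.995 FPKM with shControl and at 0.719 and 0.645 FPKM with shETV4. Both shETV4 libraries were lower, and ITGA1 fell 1.46-fold (log2 fold change -0.55 ± 0.128 SE, edgeR adjusted p = 0.0198). The call was lost without the first shControl library, at -0.53, and without the second, at -0.56. PDGFRB was lower here too, at 2.63 and 2.66 FPKM with shControl and 2.06 and 1.61 FPKM with shETV4 (log2 fold change -0.54, from -0.68 to -0.41 and called in 1 of 4 fits with 1 library left out), TWIST2 had -0.38 and was not called, whereas COL1A1 rose from 21.5 and 22.4 to 44.9 and 42.8 FPKM (log2 fold change 1.00). The summed mesenchyme list, led by COL1A1, was 25.1 and 25.7 FPKM with shControl and 47.9 and 44.9 FPKM with shETV4, and PELO had a log2 fold change of 0.47.

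The beta chains were not called after ETV4 knockdown. ITGB1 stood at 127 and 123 FPKM with shControl and at 106 and 83.5 FPKM with shETV4. The shETV4 libraries were lower and far from each other, and the log2 fold change of -0.40 ± 0.0971 SE (edgeR adjusted p = 0.0235) became -0.54 and was called without the first shETV4 library, and was -0.26 and not called without the second. ITGB5 stood at 44.03 and 45.96 FPKM with shControl and at 31.5 and 34.1 FPKM with shETV4. Its groups did not overlap, and its log2 fold change of -0.44 ± 0.0806 SE (edgeR adjusted p = 0.00858) became -0.53 and was called without the second shETV4 library. ITGB8 stood at 0.346 and 0.378 FPKM with shControl and 0.424 and 0.458 FPKM with shETV4, with an edgeR adjusted p of 0.275.

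Of the RGD-binding alpha chains, ITGAV was lower at 6.87 and 6.47 FPKM with shETV4 against 8.22 and 7.98 FPKM with shControl. The libraries were apart, but its log2 fold change was only -0.28 ± 0.0797 SE (edgeR adjusted p = 0.0406). ITGA5 stood at 8.40 and 8.55 FPKM with shControl and 8.29 and 8.42 FPKM with shETV4. These overlapped, and the 95% interval of its log2 fold change reached from -0.181 to 0.152. ITGA2B stood at 1.76 and 1.99 FPKM with shControl and 2.28 and 1.79 FPKM with shETV4, which overlapped, with a 95% interval from -0.190 to 0.436.

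ITGB1, ITGB5, ITGAV and ITGA1 had an adjusted p below 0.05 and a lower level in both comparisons, and their upstream sequences are shown because ETV4 is a DNA-binding factor whose family recognises a GGAA core. In the window of 250 bases before the canonical start, CGGAAG and AGGAAG were searched on both strands; both words end in AG, with which AGGAAG begins, so matches on the same strand can overlap. Windows were available for 8 of the 10 subunits, all but ITGA3 and ITGA7. At least 1 match stood in 4 of these 8, ITGB1, ITGB5, ITGAV and ITGA6, against 40.8% of 35114 promoter windows of all genes (16.5% for CGGAAG and 28.7% for AGGAAG). The ITGA6 match lay outside the exon-free stretch of its window. Windows at other starts of these genes were not counted. They held 0 matches, except that the ITGB5 window 14053 bases from the canonical start held 2. A match is only a run of letters and does not show binding. The sequences come from RefSeq promoters of assembly GRCh38.p14, placed on GRCh37 by exact match, and only bases outside annotated exons of the gene are printed. They run 5′ to 3′ on the strand of the gene, with matches in capitals (CTTCCG and CTTCCT are the words on the other strand): chr10:33247254-33247408 for ITGB1 and chr3:124606213-124606446 for ITGB5, both minus, and chr2:187454533-187454736 for ITGAV and chr5:52083500-52083749 for ITGA1, both plus.
ITGB1: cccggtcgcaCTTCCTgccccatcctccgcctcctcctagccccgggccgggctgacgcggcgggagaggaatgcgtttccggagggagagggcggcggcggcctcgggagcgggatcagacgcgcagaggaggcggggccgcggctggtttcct
ITGB5: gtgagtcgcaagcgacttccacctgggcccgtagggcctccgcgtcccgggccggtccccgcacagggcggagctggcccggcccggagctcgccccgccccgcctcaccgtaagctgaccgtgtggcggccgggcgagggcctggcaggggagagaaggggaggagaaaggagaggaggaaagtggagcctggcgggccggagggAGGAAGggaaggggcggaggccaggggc
ITGAV: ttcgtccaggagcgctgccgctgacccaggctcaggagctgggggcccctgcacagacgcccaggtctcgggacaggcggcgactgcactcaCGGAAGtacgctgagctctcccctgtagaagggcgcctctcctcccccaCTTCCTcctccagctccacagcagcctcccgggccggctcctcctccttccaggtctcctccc
ITGA1: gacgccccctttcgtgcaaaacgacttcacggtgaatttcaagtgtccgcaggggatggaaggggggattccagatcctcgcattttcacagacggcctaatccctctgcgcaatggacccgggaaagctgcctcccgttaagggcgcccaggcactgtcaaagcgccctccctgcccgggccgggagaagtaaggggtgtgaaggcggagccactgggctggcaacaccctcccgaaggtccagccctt
The ITGB1 stretch holds 1 match, the ITGB5 stretch 1, the ITGAV stretch 2 and the ITGA1 stretch 0. ITGA1 is the one of these 4 that was called after ETV4 knockdown.

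The third question was whether each subunit responded differently to crowding and to ETV4 knockdown. The difference of the 2 log2 fold changes, crowding minus knockdown, was tested on the counts of all 8 libraries, and the experiments share no library. Of the 10 subunits, 6 were called in this test, 2 with a positive and 4 with a negative difference, against 27.5% of the 17790 genes tested, 15.0% positive and 12.5% negative. ITGA3 had the widest gap, since it fell with crowding and rose with knockdown: the difference was -1.32 ± 0.125 SE (edgeR adjusted p = 1.50e-05). ITGB5 fell further with crowding (difference -0.91 ± 0.102 SE, edgeR adjusted p = 5.13e-05), and ITGA6 rose with crowding while its value was negative after knockdown (difference 0.88 ± 0.111 SE, edgeR adjusted p = 1.13e-04). These 3 were called with any 1 of the 8 libraries left out. ITGB1 and ITGAV had close values in both experiments, with differences of -0.07 ± 0.115 SE and 0.05 ± 0.0911 SE.

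Read as receptors by ligand, the laminin-binding chains held more of the alpha chain RNA at high density. ITGA3, ITGA6 and ITGA7 together took 76.1% and 75.5% of the summed alpha chain FPKM at low density and 82.8% and 81.8% at high density. ITGA6 alone took 48.6% and 48.8%, then 61.6% and 62.1%. The RGD-binding chains ITGAV, ITGA5 and ITGA2B went from 21.9% and 22.6% to 16.4% and 17.4%, and ITGA1 from 2.01% and 1.88% to 0.771% and 0.792%. The collagen receptor chain ITGA2, which is not among the genes examined, has no part in these shares. None of these shares overlapped between the densities; the exact two-sided permutation test gave p = 0.333, which is the smallest that 2 against 2 libraries allow. After ETV4 knockdown the laminin share went from 71.9% and 72.2% to 74.6% and 73.4% and the ITGA1 share from 1.46% and 1.42% to 1.01% and 0.991%, again without overlap and at the same smallest p. The ITGA6 share went down here, from 49.5% and 46.3% to 41.6% and 36.6%, so that the laminin share after knockdown rested on ITGA3 and ITGA7.

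Among the beta chains, ITGB5 took 32.1% and 32.9% of the summed FPKM of ITGB1, ITGB5 and ITGB8 at low density and 22.2% and 19.3% at high density. With shControl it took 25.7% and 27.2%, and with shETV4 22.9% and 28.9%, which overlapped. The summed beta chain level went from 188 and 186 FPKM to 117 and 123 FPKM with crowding, while the summed alpha chain level went from 72.4 and 69.8 FPKM to 86.0 and 87.4 FPKM. The ratio of summed alpha to summed beta FPKM thus went from 0.386 and 0.375 to 0.732 and 0.710. After ETV4 knockdown the same ratio went from 0.403 and 0.415 to 0.519 and 0.551, with the summed alpha level overlapping between the groups (69.0 and 70.1 FPKM, then 71.5 and 65.1 FPKM).

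**Figure D3:**
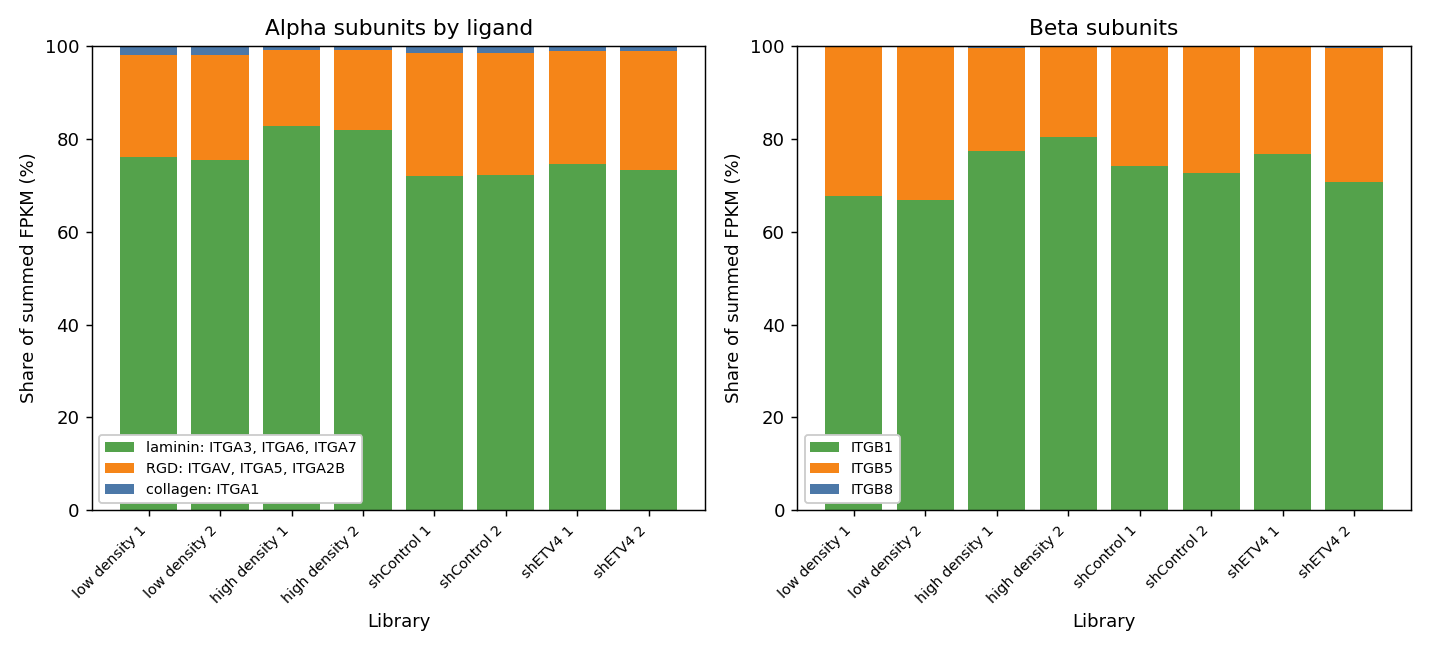
Share of the summed FPKM in each of the 8 libraries, in percent, for the 7 alpha subunits by ligand class and for the 3 beta subunits. The laminin class is largest in every library and reaches 82.8% and 81.8% at high density, and the ITGB5 share is lowest there; ITGB8 is too small to be seen.

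Single pairs showed how far the chains parted. The ITGA6 to ITGB1 ratio of FPKM was 0.277 and 0.273 at low density and 0.583 and 0.549 at high density, and with the hairpins it stood at 0.269 and 0.265 with shControl against 0.281 and 0.285 with shETV4. For the vitronectin pair, the ITGAV to ITGB5 ratio was 0.158 and 0.160 at low density and 0.327 and 0.371 at high density. It changed less with the hairpins, from 0.187 and 0.174 to 0.218 and 0.190. The ITGA3 to ITGB1 ratio moved in opposite directions, from 0.0362 and 0.0346 to 0.0299 and 0.0264 with crowding and from 0.0392 and 0.0412 to 0.0647 and 0.0887 with ETV4 knockdown. For the fibronectin pair, the ITGA5 to ITGB1 ratio overlapped between densities (0.0404 and 0.0402, then 0.0384 and 0.0422), since both genes had near equal log2 fold changes. It was higher with shETV4, at 0.0783 and 0.101 against 0.0661 and 0.0697. A ratio of RNA levels does not measure the dimers at the cell surface.

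**Figure D4:**
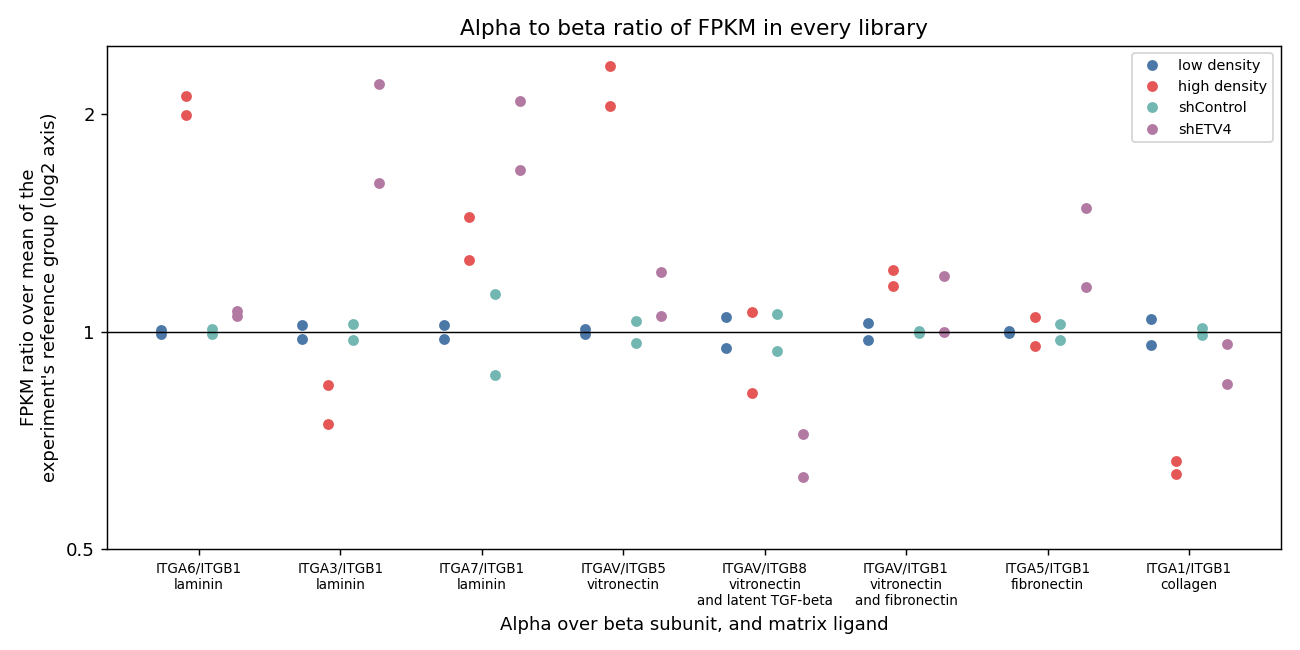
Ratio of alpha to beta subunit FPKM in each library for 8 pairs, divided by the mean ratio of the experiment's reference group (low density or shControl), on a log2 axis. The high-density points of ITGA6/ITGB1 and ITGAV/ITGB5 lie near or above 2, and the shETV4 points of ITGA3/ITGB1 and ITGA7/ITGB1 lie above the shControl points.

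Over the 8 libraries, with log2(FPKM + 0.5) centred in each experiment, the genes whose pattern was most like that of ITGB5 were PXN, NCBP1 and NIFK (Pearson r 0.995, 0.994 and 0.993). PXN encodes paxillin, an adaptor of focal adhesions, NCBP1 a cap-binding protein and NIFK a nucleolar protein. For ITGB1 they were TXLNA, NANOG and PIP4K2B (0.993, 0.993 and 0.989), of which NANOG is a pluripotency factor. For ITGA6 they were NCAPG2, a condensin subunit, UNC13B and KDM4C, a histone demethylase (0.995, 0.995 and 0.993). The points share their libraries and the shift between groups, and 62, 85 and 188 of the 7857 other genes compared had r above 0.95 with ITGB1, ITGB5 and ITGA6, so these are descriptions.

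Of the 16 integrin genes outside the 10, 9 were tested after crowding and 0 were called by edgeR, DESeq2 or limma, while 2, ITGA9 and ITGB4, had an unadjusted edgeR p below 0.05. ITGB4, the hemidesmosome partner of ITGA6, had an edgeR adjusted p of 0.0102 at a log2 fold change of 0.49. After ETV4 knockdown 11 were tested and 3 fell by edgeR, where 7.10% of all genes tested fell; DESeq2 called 3 and limma 2. Those that fell were ITGA2, a collagen receptor chain (1.63 and 1.48 FPKM with shControl, 0.930 and 0.601 FPKM with shETV4, log2 fold change -1.01), ITGA4 (1.08 and 1.04, then 0.618 and 0.406 FPKM, log2 fold change -1.03) and ITGB4 (0.934 and 1.09, then 0.709 and 0.536 FPKM, log2 fold change -0.67). ITGB4 stood at 1.15 FPKM or less while ITGA6 stood at 23.8 FPKM or more.

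Genes that switch integrins on or hold them inactive, and those through which they signal, were then read from lists. Of all genes tested, 10.7% were called higher and 5.47% lower after crowding, with a median log2 fold change of 0.0032, and 5.88% higher and 7.10% lower after ETV4 knockdown, with a median of -0.0012. Of 8 activators tested after crowding 1 was called, FERMT3, a kindlin at under 1 FPKM, which rose. Not called but with an adjusted p below 0.05 were the talins TLN1 (log2 fold change -0.45) and TLN2 (-0.36), the kindlin FERMT2 (-0.50) and RAP1A (-0.23), the small GTPase that recruits talin. Of the 4 inhibitors 1 had an adjusted p below 0.05, and was not called, the filamin FLNA (-0.47), which competes with talin for beta chain tails. Of 9 activators after ETV4 knockdown, RAP1A rose (0.65). The activator FERMT2 (0.28) and the inhibitors FLNA (0.29) and DOK1 (0.49) had an adjusted p below 0.05 and were not called. Of the 14 genes of signalling from bound integrins, 6 fell and 1 rose with crowding. Those that fell were the adaptors PXN (-0.95), BCAR1 (-0.90), PARVA (-0.91), LIMS2 (-1.35), VCL (-0.85) and ZYX (-0.93), and TNS3, a tensin, rose (0.57). The kinase PTK2, or FAK, had a log2 fold change of -0.02. ILK (-0.45) and the adaptor LIMS1 (-0.37) had an adjusted p below 0.05 and were not called. The median of this list was -0.41. After ETV4 knockdown 1 of the 14 was called, the parvin PARVB (-0.77). Not called but with an adjusted p below 0.05 were PXN (-0.37) and VCL (0.26).

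Of 9 membrane partners, 3 fell with crowding, where 5.47% of all genes tested fell. SLC3A2, the CD98 heavy chain that binds beta chain tails, fell from 164 and 167 to 93.1 and 97.5 FPKM (log2 fold change -0.85), CAV1, of caveolae, by a log2 fold change of -2.83 and PLAUR, the urokinase receptor, by -0.75. With ETV4 knockdown SLC3A2 rose (0.69), as ITGA3 did, and CD47, which associates with ITGAV integrins, fell (-0.76). Among 8 genes of integrin traffic, the clathrin adaptor DAB2 fell with crowding (-0.92) and the GTPase RAB21, which binds alpha chain tails, rose with ETV4 knockdown (0.87).

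Of 26 matrix ligand genes tested after ETV4 knockdown, 3 rose and 9 fell, with a median log2 fold change of -0.45, against 5.88% higher, 7.10% lower and a median of -0.0012 over all genes tested. FN1, the fibronectin bound by ITGA5 and ITGB1, fell from 23.6 and 19.9 FPKM to 10.6 and 7.36 FPKM (log2 fold change -1.29 ± 0.151 SE, edgeR adjusted p = 0.00164), while ITGA5 had -0.01. COL4A1, a basement membrane collagen bound by ITGA1, fell (-1.27), as did the laminin chains LAMA1 (-0.56) and LAMA2 (-0.61), the RGD proteins TNC (-1.02) and EDIL3 (-0.64) and the TGF-beta carriers LTBP1 (-0.67) and NRROS (-0.97). LAMA3, at under 1 FPKM, was the other that fell. COL1A1 (1.00), the osteopontin gene SPP1 (0.80) and LAMB3, at under 1 FPKM, rose. With crowding 2 of 27 ligand genes rose, the laminin chain LAMB1 (0.51) and NRROS (0.95), and 8 fell, with a median of -0.15, against 10.7% higher, 5.47% lower and a median of 0.0032 over all genes tested. SPP1, an RGD ligand of the ITGAV integrins, fell from 41.0 and 42.6 FPKM to 11.5 and 9.50 FPKM (log2 fold change -2.05 ± 0.0813 SE, edgeR adjusted p = 7.56e-13), in the same comparison in which ITGB5 fell. TNC (-0.50), FBLN5 (-1.02) and TGFB1 (-0.52) also fell, together with LAMA3, LAMA4 and LAMB3 at under 1 FPKM. FN1 had -0.15 with crowding, and VTN, the vitronectin gene, stood at 0.166 FPKM or less there. With 1 library left out, the calls of CXCR4, FERMT3, TNS3, LAMB1, LAMB3, TNC and TGFB1 after crowding and those of ITGB4, LAMA1, LAMA2, LAMB3 and EDIL3 after ETV4 knockdown were each lost in at least 1 of the 4 fits.

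**Figure D5:**
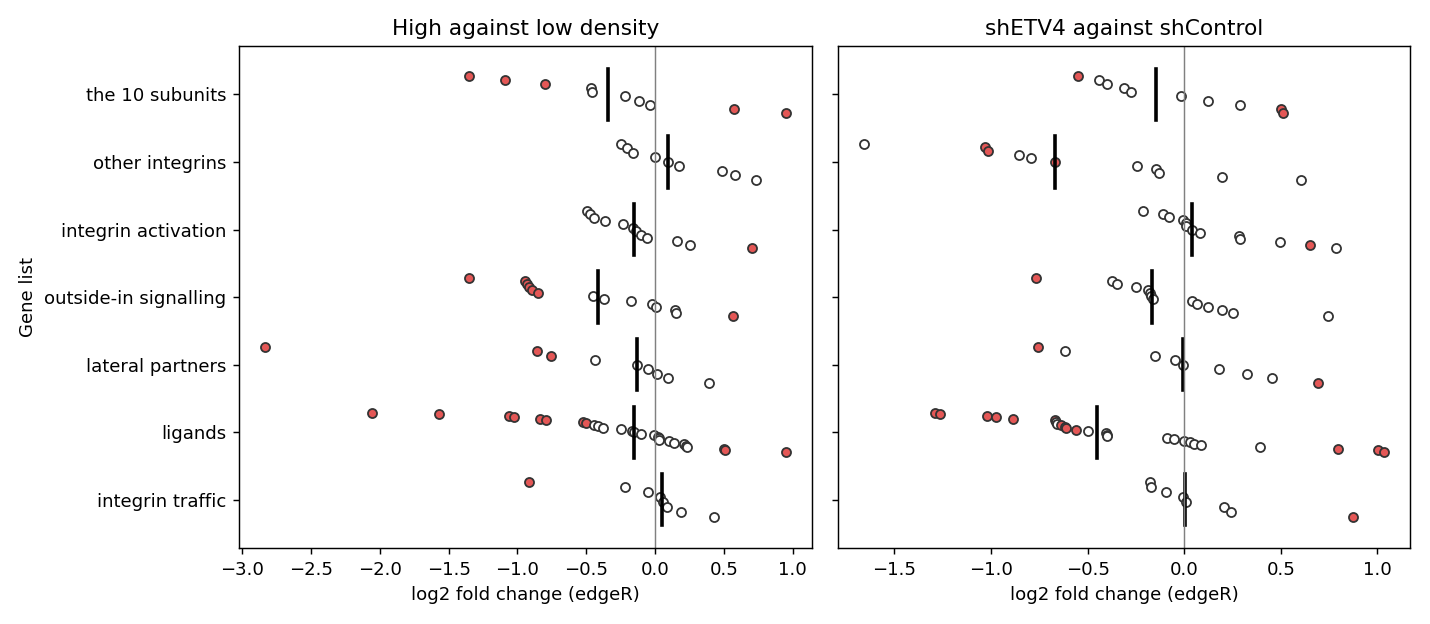
Log2 fold change (edgeR) of the tested genes of each list, for crowding and for ETV4 knockdown, with filled points for called genes and a bar at the median of each list. The signalling list has its median at -0.41 after crowding, and the ligand list at -0.45 after ETV4 knockdown.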

How the data were processed

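Poly-A RNA of 8 H9 libraries was sequenced with a stranded kit. Per the labels and the study's methods, the authors used Trimmomatic for trimming, HISAT2 2.1.0 for mapping to GRCh37 and StringTie 2.1.3b for known transcripts. The authors deposited 1 table for each experiment, with raw read counts and with FPKM, which is scaled by length and mapped reads. Both tables list only genes that have a read in every library. The authors' own fold changes and p-values in these deposited tables were left aside, as were 16 other per-sample columns. Use of strand in counting is not given in the sources used here.

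Groups came from the sample titles, which call the low-density libraries small and the high-density ones crowded; the density names are those of the series' design text and the study. The hairpin table heads its columns Test and Control, which were taken as shETV4 and shControl from the meaning of these words and from the headings of the study's own table. The test on counts was the quasi-likelihood test of edgeR 4.0.16 (R 4.3.3), robust, after filterByExpr and TMM, and p-values were adjusted by Benjamini-Hochberg over 17672 genes for crowding, 17879 for ETV4 knockdown and 17790 for the difference of both. Standard errors (SE) were taken as the size of the log2 fold change over the root of F, and a 95% interval is the log2 fold change ± 1.96 SE. Such an interval is only nominal and is narrower than the F test would give. PTK2 after ETV4 knockdown, for example, had an interval from -0.341 to -0.00536 beside an unadjusted edgeR p of 0.0762. The biological coefficient of variation was 6.83%, 9.93% and 8.46%. Libraries of a group differed beyond sampling noise. Libraries held 50359703 reads or more on genes, but genes with few reads, such as ITGB8 and ITGA2B, also carry counting error and have wider standard errors. Levels and shares use FPKM as deposited. Alternatives were DESeq2 1.42.0 and its size factors, other filters on low counts, limma 3.58.1 on log2(FPKM + pseudocount), other thresholds, a replicate block and each library left out. Counts were also simulated with 200 genes shifted by 1 on the log2 scale. Of these, edgeR recovered 98.0% for crowding, 99.5% for ETV4 knockdown and 90.0% for the difference. The false share was 3.4%, 0.995% and 4.3%. Smaller shifts were not simulated. Recovery near the limit for a call, where the subunits called after ETV4 knockdown lay, was therefore not tested.

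The subunits, the gene lists and the tests were chosen with earlier results of these data known. All 10 subunits are named, with every other integrin called in either comparison, and from the other lists the called genes whose mean reached 1 FPKM in a group; genes outside this rule (markers, overlapping genes, genes at under 1 FPKM, and uncalled genes such as ITGAE, TLN1, FERMT2, FLNA, PTK2 and VTN) were named after their values were seen. Of the called matrix ligand genes, 1 is counted but not reported here by name. The genes most like ITGB1, ITGB5 and ITGA6 were sought among those with a mean of at least 5 FPKM in both tables. Positions and overlaps are those of GENCODE, lifted to GRCh37 coordinates.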

Additional observations from a re-analysis of the deposited data

Results flagged for a closer look

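For 6 subunits the response to crowding differed from the response to ETV4 knockdown in the edgeR test of the difference (crowding minus knockdown, on the log2 scale). The values were -0.91 for ITGB5, -0.54 for ITGA1, 0.82 for ITGA2B, -1.32 for ITGA3, 0.88 for ITGA6 and -0.55 for ITGA7. In this test 27.5% of all genes were called. ITGA3 is the only one of the 6 that was called in both experiments with opposite signs. ITGA1 was called in both with the same sign. Its difference was not called without the first low-density library (-0.46) or the first shETV4 library (-0.49). The difference of ITGA2B was not called without the second low-density library (0.64), nor that of ITGA7 without the first low-density (-0.49) or the first shControl library (-0.40). The experiments differ in more than the treatment, since only the second used hairpins, and that part of the difference was not tested.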

How the results depend on the processing

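With 2 libraries a group, the calls of single subunits near the limit of 0.5 were the least certain, above all after ETV4 knockdown. Subunits called after crowding numbered 5, 2 with an absolute log2 fold change over 1, 8 by adjusted p alone, and 5 to 7 with 1 library left out. After ETV4 knockdown the 3 called became 1 by limma on log2(FPKM + 0.1), 0 by limma on log2(FPKM + 0.5) with and without the filter on low values and on log2(FPKM + 1), 0 with an absolute log2 fold change over 1, 7 by adjusted p alone, and 1 to 4 with 1 library left out. The lowest was without the first shControl library. With at least 10 counts in every library ITGA7 was at 0.499 and not called. For the difference the 6 called became 4 to 7 with 1 library left out.

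With the replicate number as a block, 5, 3 and 6 subunits were called for crowding, ETV4 knockdown and the difference, as without it, and 2874, 2901 and 5056 of all genes in place of 2851, 2321 and 4890. The numbers are not known to pair the libraries: deviations of same-numbered libraries correlated at -0.0414 and 0.0856.

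Signs that turned belong to values near 0. After crowding, ITGB8 ran from -0.29 to 0.043 with 1 library left out, and ITGA7 stood at 0.019, 0.019, 0.019 and 0.018 by limma with pseudocounts of 0.1, 0.5 (filtered and unfiltered) and 1, and ran from -0.084 to 0.013 with 1 library left out. After ETV4 knockdown ITGA2B ran from -0.029 to 0.26 and ITGA5 from -0.056 to 0.027, and the difference for ITGB1 from -0.21 to 0.072.

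Counts scaled by library size alone (CPM) in place of FPKM moved the change of the laminin, RGD and collagen shares with crowding to 8.41, -6.12 and -2.29 percentage points (6.51, -5.34 and -1.16 by FPKM), that of the ITGB8 share to 0.278 (0.115), and after ETV4 knockdown those of the collagen and ITGB8 shares to -0.807 (-0.441) and 0.307 (0.135), since CPM is not per length. The ETV4 knockdown change of the ITGB1 and ITGB5 shares (0.449 and -0.584) had no stable sign: it ran from -2.59 to 3.49 and from -3.58 to 2.42 with 1 library left out, at -0.314 and 0.168 without the second shControl library. Limma on log2(FPKM + 1) called 1256 genes after crowding and 1325 after ETV4 knockdown, on log2(FPKM + 0.5) 1717 after crowding and, for all genes, 1839 and 1502.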
